A study of Homo sapiens with 15 samples.

Results

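The comparison described here is that of the stereoprobe WX-02-43 with its vehicle DMSO in parental 22Rv1 cells, a widely used human prostate cancer line. It was chosen by treatment label and uses 2 of the 12 FOXA1 ChIP-seq peak lists of the series, with 30557 peaks for DMSO and 18228 for WX-02-43, or 48785 of the 249079 peaks in all lists. Both lists came from unmodified cells exposed for 3 h, to DMSO at 0.1% or to WX-02-43 at 20 µM. Another stereoprobe, WX-02-23, was given at the same dose for the same time. For the splicing inhibitor PladB, the sample's own label gives 100 nM and the shared protocol gives 10 nM. The lists from cells with a control small interfering RNA (siControl) and one against FOXA1 (siFOXA1) come from the same parental line, with no time or dose in the labels. The remaining 6 lists came from engineered 22Rv1 cells that stably express Y36C-PHF5A and carry doxycycline-inducible FOXA1, either WT or C258A. Each condition had 1 library, so nothing here could be set against a spread between replicates, and neither tests nor p-values are given.

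FOXA1 is a forkhead transcription factor of the pioneer class, which can bind its sites in compact chromatin and make them accessible to other factors. In prostate epithelium and prostate cancer it binds mostly at enhancers, many of them shared with the androgen receptor. A ChIP-seq peak marks a stretch where immunoprecipitated fragments pile up, and a peak can drop from a list because binding is weaker or because the library is shallower or less enriched. The series' title names covalent small molecules that redirect FOXA1, and the comparison with WX-02-43 shows where peaks were called after exposure to one of its stereoprobes.

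The strongest FOXA1 sites of parental cells were all still called with WX-02-43, and the sites missing from its list were mostly weak ones. The DMSO peaks had a median width of 682 bp and covered 23.1 Mb, whereas the WX-02-43 peaks had a median width of 643 bp and covered 12.8 Mb. Of the DMSO peaks, 16955 (55.5%, 95% interval 54.9 to 56.0%) overlapped a WX-02-43 peak and are called kept. The other 13602 (44.5%) overlapped none and are called lost. In the other direction, 1111 WX-02-43 peaks (6.1% of its list) overlapped no DMSO peak and are called gained. Few DMSO peaks sat close to the overlap threshold: 264 of the lost ones had a WX-02-43 peak within 500 bp, and 794 kept peaks did not reach a reciprocal overlap of 50%. The gained count depended more on the threshold, with 2067 gained peaks at that reciprocal overlap.

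Splitting the DMSO peaks by score into 10 groups of equal size, or deciles, showed where the losses fell. No peak of the highest decile was lost, and the Wilson interval of its kept share starts at 99.9%. Only 12 peaks were lost from decile 2 and 157 from decile 3. From there the kept share dropped to 80.8%, 60.8% and 44.4% in deciles 4 to 6, and in decile 10, with the lowest scores, it was 10.0% (9.03 to 11.2%). The first lost peak stood at rank 3481 of the DMSO list, and only 7 of the first 5000 DMSO peaks and 285 of the first 10000 were lost. None of the first 5000 was lost with siControl or with PladB, and 239 were lost with WX-02-23. The lost peaks had a median DMSO score of 137 and a median width of 572 bp, against 430 and 813 bp for the kept ones.

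**Figure D1:**
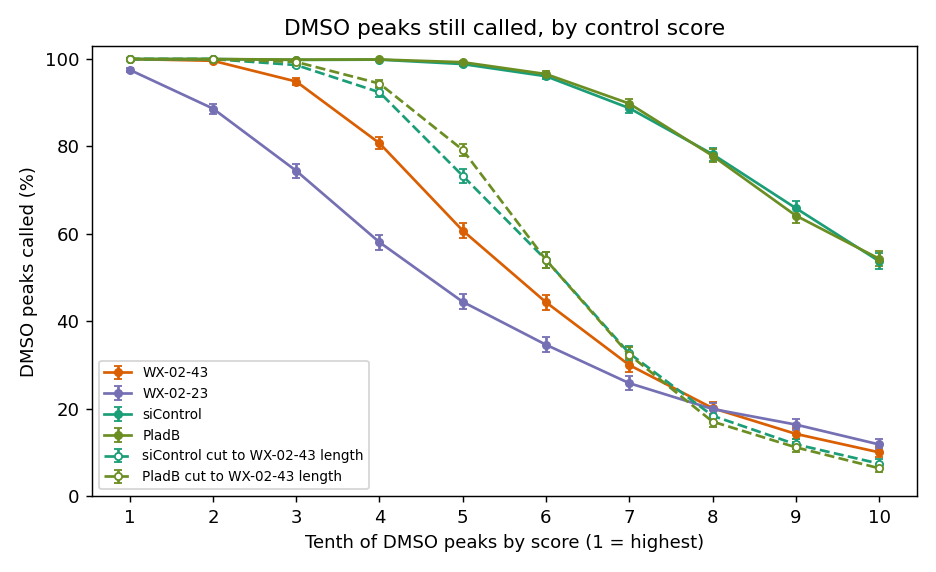
Share of DMSO peaks called in another list, for 10 equal groups of DMSO peaks ordered by score, with 95% Wilson intervals. Solid lines are lists as deposited and dashed lines are siControl and PladB lists cut to the 18228 highest-scoring peaks. WX-02-43 runs from 100% to 10.0%. It equals the dashed lines in group 1, lies below them in groups 2 to 7 and above them in the lowest 3. In group 5 it lies at -12.5 points from the cut siControl list and -18.5 points from the cut PladB list.

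As a reference for list length, the 2 longer parental lists were cut by score. The siControl and PladB lists as deposited lacked 11.9% and 11.8% of the DMSO peaks. Cut to their 18228 highest-scoring peaks, the length of the WX-02-43 list, they lacked 41.1% and 40.6%, against 44.5% for WX-02-43. The cut lists end at scores of 206 (siControl) and 202 (PladB), whereas the WX-02-43 list goes down to 90. A list cut in this way has lost its weak peaks and differs from a list that is short as called. The gaps below therefore do not measure what a shorter list gives by itself. The share kept with WX-02-43 less that of the cut siControl list was -3.40 points (-3.89 to -2.91), and less that of the cut PladB list it was -3.92 points (-4.41 to -3.43). The gap was not spread evenly over the scores. Against the cut siControl list it was 0 points in decile 1 and -0.39 points in decile 2. It reached -11.7 points (-13.2 to -10.1) in decile 4 and -12.5 points (-14.6 to -10.5) in decile 5. In deciles 8 to 10 its sign was the other way, with 1.73 points (0.00 to 3.47), 2.39 and 2.59 points more of the DMSO peaks in the WX-02-43 list. Against the cut PladB list decile 5 gave -18.5 points (-20.5 to -16.4) and decile 10 gave 3.63 points (2.39 to 4.87). The part that read depth or enrichment of the library has in these differences was not tested.

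When both lists were cut to 18228 peaks by score, 14648 DMSO peaks (80.4%, 79.8 to 80.9%) had a WX-02-43 partner. The score at that point of the DMSO list was 183.6 both for the last peak inside and for the first one outside. At this length the siControl list held 86.7% (86.2 to 87.2%) of the DMSO peaks and the PladB list 88.1% (87.7 to 88.6%). The 3 lists without a stereoprobe, compared with each other in both directions, shared between 86.4% and 88.2% of their peaks. WX-02-43 compared with each of these 3, also in both directions, gave shares between 80.2% and 81.6%. These pairs share lists, so they are not independent, but the 2 ranges do not overlap.

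Shorter cuts kept the order of the lists. With 1000 peaks per list, the WX-02-43 cut held 71.4% (68.5 to 74.1%) of the DMSO peaks, with 78.1% (75.4 to 80.6%) for siControl and 86.4% (84.1 to 88.4%) for PladB. With 5000 peaks the shares were 80.8%, 85.6% and 88.8%, and with 10000 peaks 82.1%, 87.0% and 88.9%. The whole WX-02-43 list held all of the first 1000 DMSO peaks and 97.2% (96.8 to 97.5%) of the first 10000. A DMSO peak missing from a short cut was therefore mostly present further down the WX-02-43 list. Scores at the top were tied, with 248 DMSO peaks and 21 WX-02-43 peaks at exactly 3100, so the order among these is not informative.

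**Figure D2:**
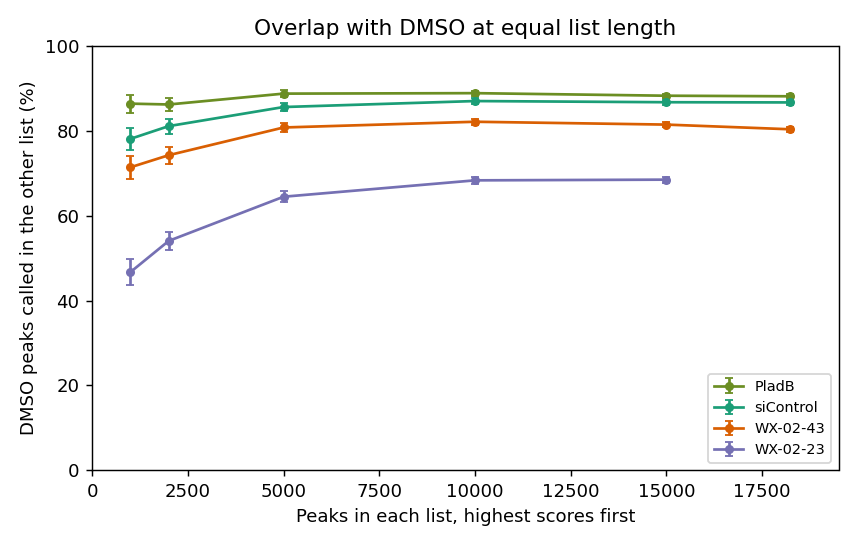
Share of DMSO peaks called in another parental list, with both lists cut to the same number of highest-scoring peaks, from 1000 to 18228, with 95% Wilson intervals. The WX-02-43 line lies between 71.4% and 82.1%, under siControl and PladB and above WX-02-23, whose list ends before 18228 peaks.

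The stereoprobes were given at the same dose and time and were both compared with the same DMSO list. The WX-02-23 list lacked 52.8% of the DMSO peaks, so WX-02-43 kept 8.29 points more (7.74 to 8.84, counting error only), with lists of similar length (17217 and 18228). This is the only pair of stereoprobes in the series, and with 1 library each it has no test. The difference was 2.45 points (1.91 to 3.00) in decile 1 of DMSO score and 22.7 points (20.6 to 24.7) in decile 4. In decile 8 the interval of the difference included 0, at 0.20 points (-1.58 to 1.97). In deciles 9 and 10 WX-02-43 kept fewer, with differences of -2.13 points (-3.74 to -0.52) and -1.80 points (-3.19 to -0.42). At 10000 peaks per list, the WX-02-23 cut held 68.3% (67.4 to 69.2%) of the DMSO peaks, against 82.1% for the WX-02-43 cut.

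Most lost sites were peaks of the other lists without a stereoprobe, but a smaller share of them than of DMSO peaks as a whole. Of the 13602 lost peaks, 8891 (65.4%, 64.6 to 66.2%) were called with both siControl and PladB, 2684 (19.7%) with 1 of them and 2027 (14.9%, 14.3 to 15.5%) with neither. Of the kept peaks, which by definition WX-02-43 also held, 97.6% were called with both and 91 (0.537%) with neither. Over all 30557 DMSO peaks, 25438 were called with both. The lost peaks that siControl and PladB both held were stronger than lost peaks as a whole, with a median DMSO score of 161 against 137. Sites lost with WX-02-43 but called with siControl, PladB and WX-02-23 numbered 2024, and their median DMSO score was 189.

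The 5 lost sites with the highest DMSO scores among those that siControl and PladB both held show how strong a missing peak could be. The first, at chr4:101700740-101701981 (1242 bp, hg19), had a DMSO score of 891 and rank 3481. It was called in 10 of the 12 lists, with ranks of 7082 for siControl, 6663 for PladB and 11355 for WX-02-23, and it was absent from WX-02-43 and siFOXA1 alone. The nearest WX-02-43 peak lay 147012 bp away, so the absence was not a shifted edge.

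The next lost site lay at chr10:118349178-118350067, with a DMSO score of 795 and rank 4121. It was called with siControl at rank 4775, with PladB at rank 6199 and in both engineered lines without doxycycline. It was called with neither stereoprobe and in no list from doxycycline-treated cells. The third was at chr5:126984695-126985926, with a score of 741, and was likewise missing with WX-02-23. The fourth, at chr4:25874406-25875254 with a score of 725, and the fifth, at chr12:96587928-96588614 with a score of 720, were both called with WX-02-23. All 5 lay at least 60847 bp from any WX-02-43 peak. Of these sites, 3 were thus called with WX-02-23, the stereoprobe whose list lacked more DMSO peaks.

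Gained peaks were few, narrow and low in score. Their median width was 444 bp, and their median rank was 15619 of 18228. By score, 2 of them stood in decile 1 of the WX-02-43 list and 410 in decile 10, where they made up 22.5% (20.6 to 24.5%) of the peaks. The siControl list cut to the same length had 418 peaks with no DMSO partner (2.29%) and the cut PladB list had 327 (1.79%). Both were below the WX-02-43 list. As deposited, the siControl and PladB lists had 7331 (21.5%) and 6411 (19.4%) such peaks, above WX-02-43. The order of the lists thus depended on the cut, which leaves out the weaker siControl and PladB peaks. WX-02-23 held 2667 (15.5%). The median distance from a gained peak to the nearest DMSO peak was 25701 bp, and 50 lay within 500 bp of one.

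**Figure D3:**
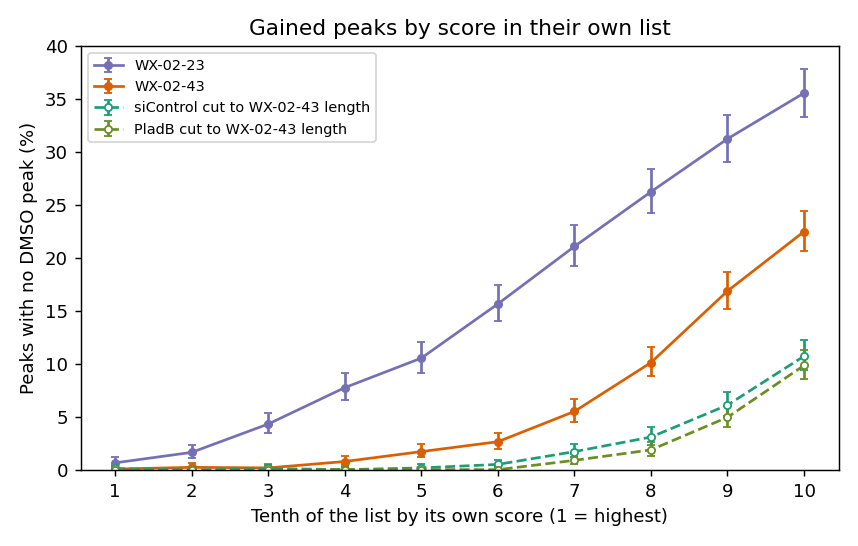
Share of peaks with no DMSO peak, for 10 equal groups of each list ordered by its own score, with 95% Wilson intervals. With WX-02-43 the share goes from 0.11% in the highest group to 22.5% in the lowest, above both cut lists in the lower groups and below WX-02-23 in all 10.

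A peak gained relative to DMSO need not be particular to WX-02-43, since the DMSO list misses sites that other lists hold. Of the 1111 gained peaks, 710 (63.9%, 61.0 to 66.7%) were called with siControl or PladB and 415 with both. The other 401 were called with neither, and 92 of these were called with WX-02-23. That left 309 peaks in the WX-02-43 list alone among these 5 parental lists, and the best of them ranked 7735 of 18228. For scale, 46.0% (43.1 to 48.9%) of the WX-02-43 gained peaks were PladB peaks and 55.3% (52.3 to 58.2%) were siControl peaks. Of the 7331 peaks that the siControl list as deposited gained over DMSO, 48.4% (47.3 to 49.6%) were PladB peaks. Of the 6411 that the PladB list gained, 54.9% (53.7 to 56.1%) were siControl peaks. The cut siControl list, without its weaker peaks, gained 418, of which 339 (81.1%, 77.1 to 84.6%) were PladB peaks.

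The 10 strongest gained peaks without a siControl or PladB partner differed from the rest in width and position. Of the first 10 by score, all 10 were also called with WX-02-23, 5 lay on chromosome Y and 3 were siFOXA1 peaks. Their median width was 2934 bp, against 416 bp for all 401. The contrast depended on the cut: the median was 748 bp for the first 20 and 481 bp for the first 50. Of the first 50, 6 lay on chromosome Y. The strongest, at chrY:58841484-58848425, was 6942 bp wide, with a score of 773 and rank 1491. The third, and the fourth after it, lay close by on the same chromosome, at chrY:58909213-58917704 and chrY:58848535-58855607, with scores of 466 and 430. Among the named gained peaks, the second was at chrX:53935307-53935515, 209 bp wide with a score of 527, and it was also a siFOXA1 peak at rank 497 of that list. The fifth was at chr9:66970920-66971905 with a score of 330.

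The Y peaks fall in the distal long arm, next to the heterochromatic block that hg19 leaves largely unassembled. Between 58800001 and 59000000 on thon chromosome, the WX-02-43 list held 8 peaks that covered 47.5 kb and the WX-02-23 list held 6 that covered 59.9 kb. The DMSO, PladB and siControl lists held 0 peaks there. The region was not limited to the stereoprobes, since the siFOXA1 list held 2 peaks there, the best at rank 15 of its 3018. Lists from WT cells without doxycycline, C258A cells with doxycycline and DMSO, and C258A cells with doxycycline and WX-02-23 held 2 peaks each, and the C258A list without doxycycline held 1. How reads from repeated sequence were placed in each library was not tested.

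Kept, lost and gained sites differed in how often they were called after knockdown of FOXA1. The siFOXA1 list held 6.92% (6.55 to 7.32%) of the kept sites, 0.184% (25 of 13602) of the lost sites and 10.9% (9.19 to 12.9%) of the gained sites. Kept WX-02-43 peaks with the same make-up by decile of WX-02-43 score were called with siFOXA1 at 0.733%. Gained sites were thus called after FOXA1 knockdown more often than kept sites of like score, by more than the counting error of 121 of 1111. Among the 401 gained peaks that neither siControl nor PladB held, the share was 11.2% (45 peaks), close to that of all gained sites. The siFOXA1 share was not computed for peaks that siControl or PladB gained over DMSO. Whether the excess is particular to WX-02-43 was therefore not tested. The siFOXA1 list was short, with 3018 peaks, and how much FOXA1 remained after knockdown was not analysed here.

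**Figure D4:**
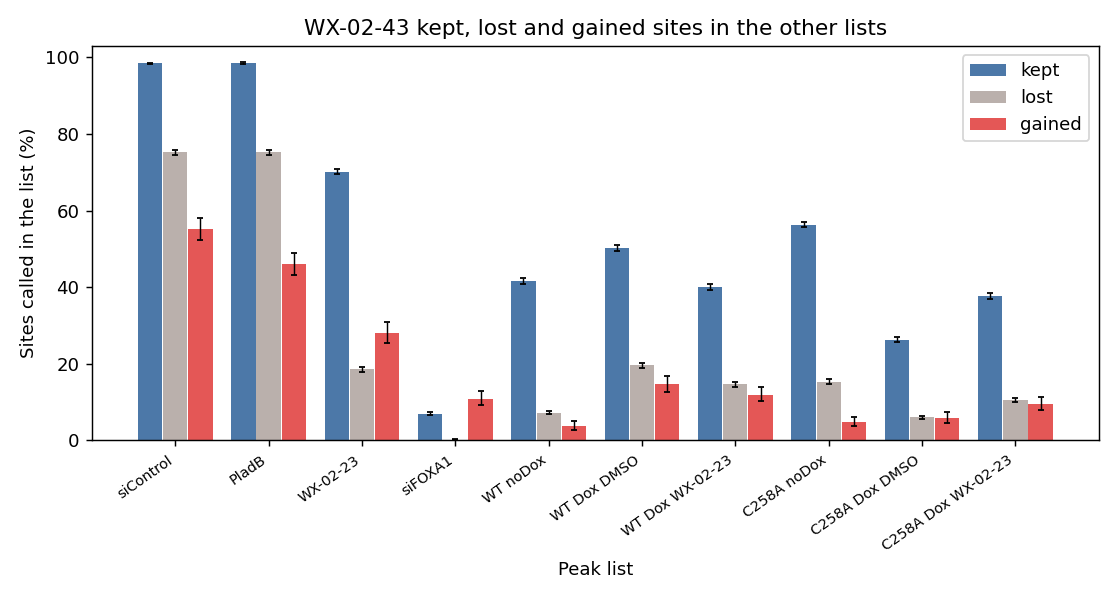
Share of the 16955 kept, 13602 lost and 1111 gained sites called in each of the other 10 lists, with 95% Wilson intervals. Kept sites have the highest bar in every list but siFOXA1, where gained sites reach 10.9%.

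In the engineered lines, sites kept with WX-02-43 were called more often than lost sites in each of the 6 lists. Without doxycycline, 41.7% of kept and 7.22% of lost sites were called in WT cells, and 56.4% and 15.3% in C258A cells. With doxycycline and DMSO the shares were 50.1% and 19.7% in WT cells, and 26.3% and 6.01% in C258A cells. Kept sites are stronger, so lost sites were also set against kept sites with the same make-up by DMSO score decile. Those kept sites were called at 9.92% in WT and 19.3% in C258A cells without doxycycline, still above the lost sites. Gained sites were called at 3.69% and 4.77% in the same 2 lists, where kept WX-02-43 peaks of like score were called at 19.9% and 33.1%. In the parental siControl list those shares were 55.3% and 95.5%. In the parental siControl list the shares were 75.2% for lost sites and 90.9% for kept sites of like score.

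Peaks shared with DMSO were mostly narrower with WX-02-43. At the 16645 sites where 1 DMSO peak overlapped exactly 1 WX-02-43 peak, the median width was 810 bp with DMSO and 655 bp with WX-02-43. The WX-02-43 peak was the narrower at 84.2% (83.6 to 84.7%) of these sites, with a median width ratio of 0.813. The corresponding ratio was 0.823 for WX-02-23 and 1.09 for siControl. A total of 210 DMSO peaks overlapped more than 1 WX-02-43 peak, and 58 WX-02-43 peaks overlapped more than 1 DMSO peak. Called widths can move with depth, whose part in this was not tested. Over the shared sites, scores in the 2 lists had a Spearman rho of 0.83 with WX-02-43, against 0.88 over 26376 sites for siControl, 0.90 over 26309 for PladB and 0.61 over 14134 for WX-02-23. These are descriptions over sites of single libraries, and the site sets differ.

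Shared sites also include a few whose place in the order differed greatly. In deciles 1 to 8 of DMSO score, the median shared site stood lower with WX-02-43 relative to list length, as at 5.05% and 9.21% in decile 1. The WX-02-43 list is shorter (18228 peaks against 30557), so an unchanged rank is a larger share of it. The lower place is therefore not read as a change in the order of strong sites. In decile 10 the median shared site stood higher, with a median place of 94.4% of the list with DMSO and 84.2% with WX-02-43. Shared sites of that decile also rose with siControl (94.7% to 74.9%) and PladB (94.7% to 76.9%), so a rise from a low DMSO rank is usual. The largest rise was at chr19:39880042-39880570, at rank 29723 of 30557 with DMSO and 3886 of 18228 with WX-02-43. It ranked 3601 with WX-02-23, 5807 with PladB and 75 with siFOXA1, and it was not called with siControl. The next rises were at chr3:110737707-110738121 (ranks 29885 and 5073) and at chr6:74161241-74161701 (ranks 23322 and 1593). The chromosome 6 site stood at rank 73 with siControl and 49 with siFOXA1. All 3 sites were also called with WX-02-23 and PladB, ahead of their DMSO rank. The largest falls were at chr4:124998787-124999663 (ranks 4207 and 17281), at chr14:93601479-93602399 (5958 and 18120) and at chrX:502770-503618 (5596 and 17815).

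Width at a given score made little difference to whether a site was kept. Within deciles of DMSO score, the widest peaks (median 833 bp) were kept at 54.5% and the narrowest (559 bp) at 56.3%, a difference of -1.83 points (-2.81 to -0.85). The same difference was -0.65 points (-1.55 to 0.25) for the cut siControl list and 4.05 points (3.19 to 4.92) for the cut PladB list, so it changed sign between libraries of equal length.

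Spacing made little difference either. Of the DMSO peaks, 9397 had another DMSO peak within 10 kb and 3339 had none within 100 kb. The crowded peaks were kept at 55.7% and the isolated ones at 55.6%. At equal score make-up these became 55.0% and 56.7%, a difference of -1.73 points (-3.13 to -0.34), against -1.10 points (-2.39 to 0.19) for the cut siControl list. For the cut PladB list the difference had the other sign, at 1.43 points (0.18 to 2.67). Losses did not run along the chromosome to any large extent. A DMSO peak was lost in 45.6% of cases where the next one along was lost and in 43.7% of cases where it was kept. For neighbours within 10 kb, both peaks were lost in 20.5% of 5324 pairs, where their score deciles alone gave 19.4%.

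Kept shares varied little between chromosomes. They ranged from 47.5% on chromosome 22 (345 DMSO peaks) and 47.9% on chromosome 19 (645 peaks) to 57.8% on chromosome 16 and 62.8% on chromosome Y (164 peaks). Part of this followed the scores. With score deciles taken into account, chromosome 19 lay -4.19 points (-8.02 to -0.33) from the genome-wide level and chromosome X lay 4.59 points (1.30 to 7.82) above it. These 2 were the only ones of 24 chromosomes whose interval excluded 0 in this comparison. Chromosome 22 stood at -4.55 points (-9.76 to 0.72) and chromosome Y at 6.05 points (-1.56 to 13.1), both with intervals that included 0. In the cut siControl list, 5 chromosomes had an interval that excluded 0. Chromosomes 19, 22, X and Y lay there at 1.30, 5.45, 0.93 and 6.03 points. In the cut PladB list, 2 chromosomes had such an interval, and 19, 22, X and Y lay at 1.72, 1.49, -0.67 and 4.68 points. In the WX-02-23 list, which was compared with the same DMSO peaks, chromosome 19 lay at -5.03 points (-8.71 to -1.21) and X at 3.76 points.

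**Figure D5:**
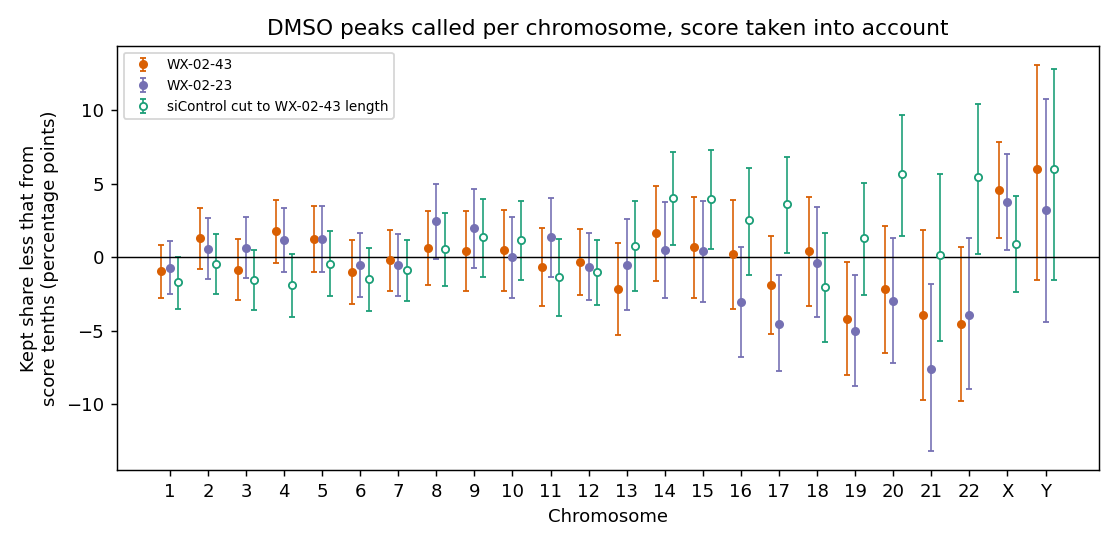
Kept share of DMSO peaks per chromosome less the share that their score deciles give, in percentage points, with 95% intervals, for WX-02-43, WX-02-23 and the siControl list cut to 18228 peaks. For WX-02-43 the interval excludes 0 on chromosome 19 (-4.19) and on X (4.59).

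Chromosome 19 is the most gene-dense human chromosome and also had a high share of gained peaks. Of its 363 WX-02-43 peaks, 44 (12.1%, 9.15 to 15.9%) had no DMSO peak, against 6.1% over all chromosomes and 4.04% on chromosome 7. Chromosome 19 was also above the level of the whole list with WX-02-23 (19.9% against 15.5%), in the cut siControl list (4.27% against 2.29%) and in the cut PladB list (3.47% against 1.79%), so its excess was not limited to WX-02-43. Chromosome Y had 20 gained among 123 WX-02-43 peaks (16.3%, 10.8 to 23.8%), and the shares there were 26.3% with WX-02-23, 4.46% in the cut siControl list (5 of 112) and 3.64% in the cut PladB list (4 of 110). Across the 24 chromosomes, the score-adjusted kept share and the density of protein-coding genes (GRCh38.p14, counts per chromosome only) had a Spearman rho of -0.53 for WX-02-43. It was -0.56 for WX-02-23, which was compared with the same DMSO peaks, 0.24 for the cut siControl list and 0.42 for the cut PladB list. Each value describes chromosomes within 1 pair of libraries, and the part that depth or base composition has in it was not tested. On Y, 12 of the 164 DMSO peaks and 7 of the 123 WX-02-43 peaks had a counterpart on X at an offset of 50 kb, and because X and Y share their pseudoautosomal sequence, the members of such a pair cannot be told apart.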

How the data were processed

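ChIP-seq, the sequencing of DNA immunoprecipitated here with FOXA1, was deposited as 1 peak list per library. Per the labels' protocols, fixation used 1.1% formaldehyde and the libraries came from a ThruPLEX kit. Per the submitters' processing notes, bcl2fastq and Bowtie2 were used and the build was hg19. The peak caller's version, threshold and control library are not given in the sources used here, but the name given to each peak starts with MACS, which is a peak caller. Each peak carries a score deposited by the authors, whose definition is not given, so it served only to rank peaks within a list. No reads were counted here, so sequencing depth is unknown.

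Peaks were shared when they overlapped by 1 bp or more. Shares carry Wilson 95% binomial intervals, and score-standardised differences carry normal ones. Both cover counting error over peaks only. Score-standardised values were weighted over deciles of the DMSO list by score. Ties in score were broken by position. The overlap and spacing code was tested on simulated lists (Python 3.11.15, numpy 2.4.6, scipy 1.17.1). The lists, comparisons and rules were chosen with earlier results of these data known. The cut siControl and PladB lists, the counts of neighbouring pairs, the Y region, the windows and the mirrored peaks were added later. Peaks named by position are the 5 lost ones with the highest DMSO score that siControl and PladB both held, and the 5 gained ones with the highest WX-02-43 score that neither held. To these were added the 3 one-to-one shared peaks with the largest rise and the 3 with the largest fall in rank relative to list length. Alternatives are given in the closing section. Sequence content and nearest genes were not analysed here, because the gene tables used were of GRCh38.p14.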

Additional observations from a re-analysis of the deposited data

How the results depend on the processing

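Among 53 alternative values for 15 results, 28 lay outside the interval of the reported share (or over 1.5 times from the reported count) and 25 did not. No value has a test, so none lost a call, and no difference changed sign. The share of DMSO peaks kept became 52.9% with a reciprocal overlap of 50%, 56.4% with a gap of 500 bp, 80.4% at 18228 peaks per list, 82.1% at 10000, 80.8% at 5000 and 57.0% with the top 50% of each list. With siControl as the control list it was 50.5%, and with PladB, a setting chosen after seeing the data, 51.7%. Gained peaks numbered 2067 with reciprocal overlap, 3383 at 18228 peaks, 1725 at 10000 and 353 with the top 50%. Reciprocal overlap gave 96.7% for decile 1, 62.3% for lost peaks held by siControl and PladB, and 44.7% for gained peaks held by either. At 18228 peaks these last 2 were 94.6% and 85.7%, decile 10 was 40.8% and the width difference -3.32 points. Score groups of 20% gave 99.8% and 12.2% for the highest and the lowest group, and a 500 bp gap gave 11.7% for decile 10. The cut at 18228 peaks shortens the DMSO list alone, so it can only raise the gained count. It also leaves out weak DMSO peaks, of which few were kept. With both lists shortened the gained count went either way, to 1725 at 10000 peaks and 942 at 5000. The order WX-02-23, WX-02-43, cut siControl and cut PladB, by kept share, held under reciprocal overlap, a 500 bp gap and autosomes alone, settings chosen after seeing the data for the lists other than WX-02-43. No paired analysis was possible because each group has 1 library. Depth is unknown and limits every comparison of list lengths, weak peaks and widths.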

Other observations

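The genome was also read in windows of 5 Mb, of which 326 held at least 50 DMSO peaks. The kept share less that given by the score deciles had a median of -0.08 points over these windows, with 80% of them between -6.70 and 6.08 points. The lowest window was chr19:1-5000000, where 24 of 75 DMSO peaks were kept (32.0%, 22.5 to 43.2%), -15.7 points from the level of its scores. In the same window the value was -9.19 points for WX-02-23, -1.21 for the cut siControl list and 2.64 for the cut PladB list. The highest was chr14:40000001-45000000, where 37 of 51 were kept, 16.2 points above that level, and there WX-02-23 gave 12.3 points, the cut siControl list 7.66 and the cut PladB list 6.85. These windows were picked as the extremes of 326, after the values were seen, and carry no test.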
